A study of Mus musculus with 4 samples.

Results

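The genes of the proteasome, the protease complex that degrades ubiquitin-tagged proteins, were examined for crosslinks to MSI2, a Musashi family RNA-binding protein, in mouse intestinal epithelium. Members were all protein-coding genes whose symbol begins with Psm, a letter from a to g and a digit, which gave 51 of 21900 protein-coding genes. Of these, 8 encode alpha and 11 beta subunits of the core particle (Psma and Psmb), 6 the ATPases (Psmc), 14 lid, base and related genes (Psmd), 5 activators (Psme), 1 an inhibitor (Psmf1) and 4 assembly chaperones (Psmg). The remaining 2, Psmc3ip and Psme3ip1, carry a matching symbol but encode a meiotic recombination factor and a protein that binds an activator; they were kept under the rule and are described apart.

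The measurement was CLIP-seq, in which ultraviolet light fixes RNA to the protein it touches, an antibody to MSI2 recovers the complex, and the attached fragments are sequenced. There were 4 libraries, all from C57BL6 mice. The 2 TRE-Msi2 libraries came from animals with a doxycycline-inducible Msi2 transgene, whose total intestinal epithelium was taken after 24 hours of doxycycline, and the 2 WT libraries came from wild-type crypts, with no doxycycline recorded. The sources used here do not state the age of the mice, nor the transactivator or promoter behind the transgene. Transgene, doxycycline and tissue fraction therefore differ together and cannot be told apart.

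The authors deposited 1 pooled peak list per genotype, with 16939 peaks in the TRE-Msi2 list and 12061 in the WT list and no list per library. Replicate spread is therefore not known for any value, and the genotypes were compared without a test. A peak is 1 or more joined 200-nt bins, and its score is the authors' own value, read here as reads per bin. For joined peaks this reading is not strict. In Psmg4 a WT peak of 400 nt scored 13.67 and a TRE-Msi2 peak of 1000 nt scored 21.78. Neither is a mean of whole reads over the bins of the peak. How the scores of joined peaks were made is not known here. Single-bin peaks started at a score of 20 in the TRE-Msi2 list (exact Poisson 95% interval 12.2 to 30.9) and 15 in the WT list (8.40 to 24.7). The depth of the libraries is unknown. Neither input nor RNA levels were measured in the data used here, and how far a peak reflects transcript abundance was not tested. In such bulk material fewer cells of a type and less RNA per cell cannot be told apart. Of 7 epithelial marker genes, 7 held a TRE-Msi2 peak and 6 a WT peak, and of 7 stromal markers 0 did in either list. Of 10 immune markers the same 4 (Cd74, Lyz2, Ccl5 and Jchain) held a peak in both lists, and those without a peak in either list included Ptprc, Cd3e, Cd68 and Itgam.

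The proteasome is built from a barrel-shaped core particle, whose beta subunits carry the proteolytic sites and whose alpha subunits form the gate, and from regulatory particles that sit on its ends. The regulatory particle has a base, with a ring of ATPases that unfold the substrate, and a lid that removes ubiquitin. In cells exposed to interferon, alternative catalytic subunits and the PA28 activator replace or join the standard parts and change the peptides offered for antigen presentation, and assembly chaperones build the core without being part of the finished particle.

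Peaks were found over 27 of the 51 genes in the TRE-Msi2 list (52.9%, exact Clopper-Pearson 95% interval 38.5% to 67.1%) and over 16 in the WT list (31.4%, 19.1% to 45.9%). Over all protein-coding genes the shares were 24.9% in the TRE-Msi2 list and 20.3% in the WT list. Genes with a span between the shortest and the longest member, 1.07 kb to 109 kb, gave 25.3% in the TRE-Msi2 list and 20.4% in the WT list. All 16 genes of the WT list were also in the TRE-Msi2 list (a peak in both lists was held by 19.1% of protein-coding genes), 11 genes held TRE-Msi2 peaks alone, 0 held WT peaks alone and 24 held none. The intervals cover counting error only, and the genes of a complex are not replicates of a condition.

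The members carried few peaks, of moderate score. They held 47 TRE-Msi2 and 23 WT peaks, with no more than 4 over any gene in the TRE-Msi2 list and 3 in the WT list; the median was 1 peak per gene, as over all protein-coding genes with a peak. Their highest scores had a median of 31 in the TRE-Msi2 list and 21 in the WT list, where all protein-coding genes with a peak had medians of 28 in the TRE-Msi2 list and 21 in the WT list. Single-bin peaks made up 39 of the 47 TRE-Msi2 peaks (83.0%, 69.2% to 92.4%) and 20 of the 23 WT peaks (87.0%, 66.4% to 97.2%). In the whole lists single-bin peaks were 58.8% of TRE-Msi2 and 63.2% of WT peaks.

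**Figure D1:**
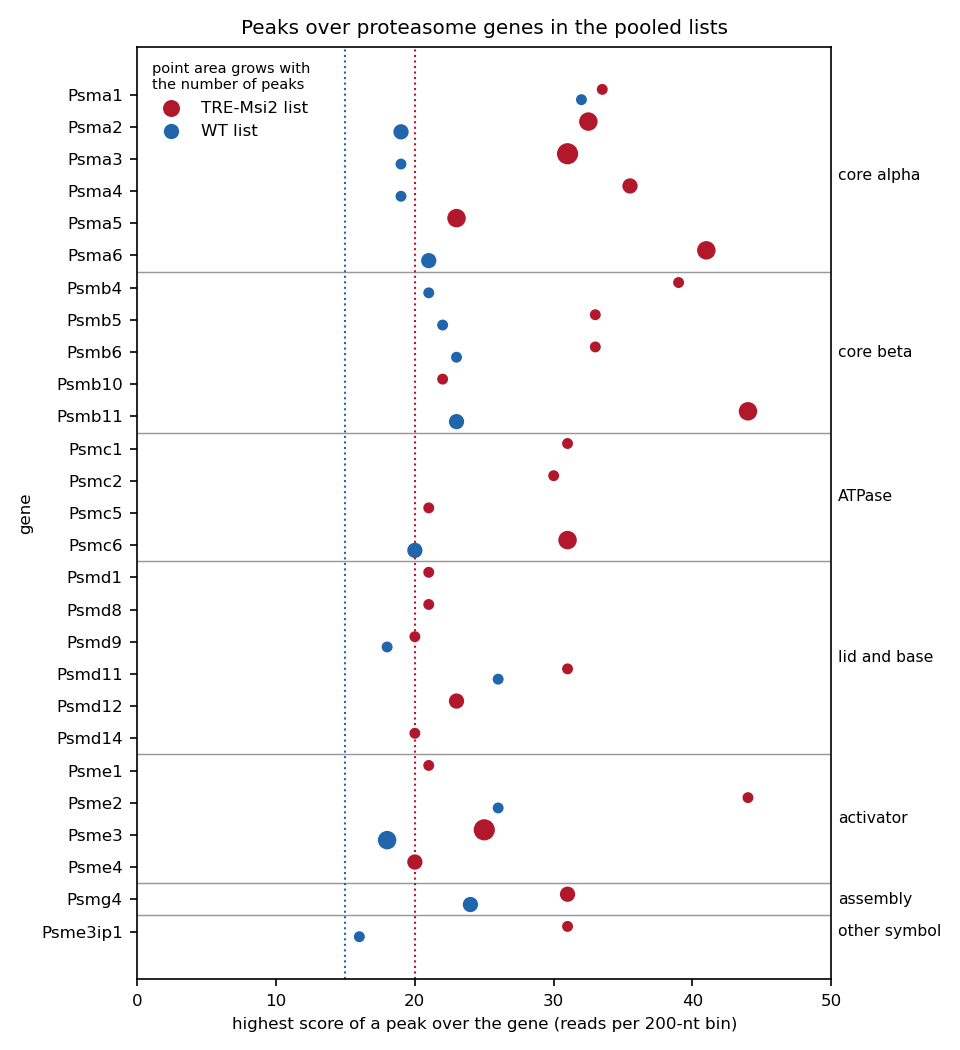
Highest peak score over each of the 27 proteasome genes with a peak (reads per 200-nt bin), in the pooled TRE-Msi2 list (red) and the pooled WT list (blue); point area grows with the number of peaks, and dotted lines mark the lowest single-bin score of each list, 20 and 15. Blue points are missing in 11 rows, most of them among the ATPase, lid and base, and activator genes, and the TRE-Msi2 scores run from 20 in Psmd9, Psmd14 and Psme4 to 44 in Psmb11 and Psme2.

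The alpha subunits of the core, which form its outer rings and gate, were the class with the most peaks. Of 8 genes, 6 held a TRE-Msi2 peak (75%) and 5 a WT peak (62.5%), with 16 and 7 peaks in all. Over all protein-coding genes the shares were 24.9% and 20.3%. Psma6, on chromosome 12 from 55384222 to 55418459, held 3 TRE-Msi2 peaks scoring 22, 25 and 41 reads per bin and 2 WT peaks scoring 17 and 21. In both lists the highest lay at 55418214 to 55418413, with its midpoint 145.5 nt before the gene's end. Its score stood at percentile 93.5 of the TRE-Msi2 list and 65.5 of the WT list.

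Psma4 held TRE-Msi2 peaks of 22 and 35.5 and a WT peak of 19, and its higher TRE-Msi2 peak covered the same 400 nt as the WT peak, at 54957594 to 54957993 of chromosome 9. Psma1 held 1 peak in each list at the end of the gene, scoring 33.5 at 114264487 to 114264886 of chromosome 7 in the TRE-Msi2 list and 32 at 114264687 to 114264886 in the WT list. The Psma1 value is the highest WT score of any member, at percentile 92.7 of that list; the TRE-Msi2 peak spans 400 nt and the WT peak 200 nt. Psma2 held 3 TRE-Msi2 peaks (28, 20 and 32.5) and 2 WT peaks (19 and 18), and both lists had one at 28.9% of the span and one at its end. Psma3 held 4 TRE-Msi2 peaks scoring 25, 31, 26 and 22, the peaks of 26 and 22 also within 3110056K07Rik, and 1 WT peak of 19 at the place of the 31. Psma5 held 3 TRE-Msi2 peaks of 20, 20 and 23 and no WT peak, the last at 108279883 to 108280082 of chromosome 3, across the annotated end. Psma7 and Psma8, its testis counterpart, held none in either list, so every alpha gene of the somatic core except Psma7 held a TRE-Msi2 peak.

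Of the 11 beta subunit genes, 5 held a TRE-Msi2 peak (45.5%, 16.7% to 76.6%) and 4 a WT peak (36.4%, 10.9% to 69.2%). Of the standard catalytic subunits, Psmb5 (chymotrypsin-like site) held a TRE-Msi2 peak of 33 and a WT peak of 22 at 54614164 to 54614363 of chromosome 14, and Psmb6 (caspase-like site) a TRE-Msi2 peak of 33 and a WT peak of 23 at 70527499 to 70527698 of chromosome 11. Psmb7 (trypsin-like site) held none. Of their interferon-induced replacements, Psmb8 and Psmb9 held none, and Psmb10 held 1 TRE-Msi2 peak of 22, at 105935701 to 105935900 of chromosome 8, and no WT peak. Standard sites were thus represented by 2 of 3 genes in each list, and the replacements by 1 of 3 in the TRE-Msi2 list and 0 of 3 in the WT list. Over all protein-coding genes the shares were 24.9% in the TRE-Msi2 list and 20.3% in the WT list. With 3 genes in each set, the counts cannot tell the sets apart from each other or from those shares.

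Among the beta subunits without a proteolytic site, Psmb4 held a TRE-Msi2 peak of 39 and a WT peak of 21 at 94884279 to 94884478 of chromosome 3, which reaches 45 nt past the annotated end of the gene. Psmb1, Psmb2 and Psmb3 held none. Psmb11, known in mouse as a subunit of the thymus, held peaks in both lists: TRE-Msi2 scores of 44, 26 and 25 and WT scores of 23 and 22. The peaks of 44 and 23 shared the bin at 54627564 to 54627763 of chromosome 14, and those of 25 and 22 the bin at 54629364 to 54629563. The TRE-Msi2 peak of 26 was antisense to the gene. Single-bin peaks of 1 score normally share 1 deposited p-value, and the TRE-Msi2 peaks of 44 and 25 and the WT peak of 23 carried another. How far the Psmb11 peaks come from its own transcript was not tested.

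Of the 6 ATPases, which thread the substrate into the core, 4 held a TRE-Msi2 peak (66.7%, 22.3% to 95.7%) and 1, Psmc6, a WT peak (16.7%, 0.42% to 64.1%), beside 24.9% and 20.3% of all protein-coding genes. Psmc6 held TRE-Msi2 peaks of 31, 18 (a joined peak with a deposited Piranha p of 0.333) and 29.5 and WT peaks of 17 and 20. The first of each list lay at 45330726 to 45330925 of chromosome 14, 1002.5 nt into the gene, and in each list it was the 1 member peak on its gene's own strand in the first 10% of the span. Psmc1 held a TRE-Msi2 peak of 31 at 100114791 to 100114990 of chromosome 12 and no WT peak, and Psmc2 a TRE-Msi2 peak of 30 at 21803383 to 21803782 of chromosome 5, with its midpoint 204.5 nt before the gene's end, and no WT peak. Psmc5 held 1 TRE-Msi2 peak of 21, with its midpoint 125.5 nt before the end, and no WT peak. Psmc3 and Psmc4 held none in either list.

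Of the 14 Psmd genes, 6 held a TRE-Msi2 peak (42.9%, 17.7% to 71.1%) and 2 a WT peak (14.3%, 1.78% to 42.8%). Over all protein-coding genes the shares were 24.9% and 20.3%, both within these intervals. Psmd11, a lid scaffold, held 1 peak in each list at 80471499 to 80471698 of chromosome 11, scoring 31 in the TRE-Msi2 list and 26 in the WT list. Psmd12, another lid scaffold, held TRE-Msi2 peaks of 22 and 23; Psmd14, the deubiquitinase of the lid, 1 of 20; Psmd8, a lid subunit, 1 of 21; and Psmd1, a large scaffold of the base, 1 of 21. None of these 4 held a WT peak. The peak of Psmd14 and the higher peak of Psmd12 lay near the gene's end, with midpoints 132.5 and 249.5 nt before it, and those of Psmd1 and Psmd8 lay at 34.2% and 55.4% of the span. The remaining gene, the assembly chaperone Psmd9, held a TRE-Msi2 peak of 20 and a WT peak of 18 at the same place, but both were antisense to the gene and crossed its annotated end. Counted on its own strand, the class therefore held 5 TRE-Msi2 genes and 1 WT gene. Psmd2, Psmd3, Psmd4, Psmd5, Psmd6, Psmd7, Psmd10 and Psmd13 held none; these include Psmd2, the second large base scaffold, the ubiquitin receptor Psmd4, and the chaperones Psmd5 and Psmd10.

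Of the 5 activator genes, 4 held a TRE-Msi2 peak (80%, 28.4% to 99.5%) and 2 a WT peak (40%, 5.27% to 85.3%). Over all protein-coding genes the shares were 24.9% and 20.3%. Psme2, the beta chain of the PA28 activator that interferon induces, held 1 peak in each list at 55587364 to 55587563 of chromosome 14, across the annotated end of the gene, scoring 44 (Poisson interval 32.0 to 59.1) in the TRE-Msi2 list and 26 (17.0 to 38.1) in the WT list. These scores stand at percentile 95.05 of the TRE-Msi2 list and 83.8 of the WT list. Its partner Psme1, the alpha chain, held a TRE-Msi2 peak of 21, which also touches Emc9, and no WT peak. Psme2b, a paralogue of Psme2 on chromosome 11, held none, and how reads that fit both genes were assigned is not stated in the sources used here.

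Psme3, the nuclear PA28 chain, held 4 TRE-Msi2 peaks (22, 20, 25 and 21) and 3 WT peaks (15, 18 and 15) along its 7.33 kb span, and none of them had its midpoint within 500 nt of the gene's end. Psme4, a single-chain activator of the core, held 2 TRE-Msi2 peaks of 20, the second also within Erlec1, and no WT peak. Psmf1, the inhibitor, held none. Of the assembly chaperones, Psmg1, Psmg2 and Psmg3 held none. Psmg4 held TRE-Msi2 peaks of 31 and 21.8 (deposited Piranha p of 0.338) and WT peaks of 13.7 (p of 0.333) and 24. All but the peak of 31 were antisense to the gene. That peak, too, carried a p-value other than the usual one for its score. Of the 2 genes with matching symbols that are not subunits, Psme3ip1 held 1 peak in each list at 94582901 to 94583100 of chromosome 8 (31 in TRE-Msi2, 16 in WT) and Psmc3ip none.

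**Figure D2:**
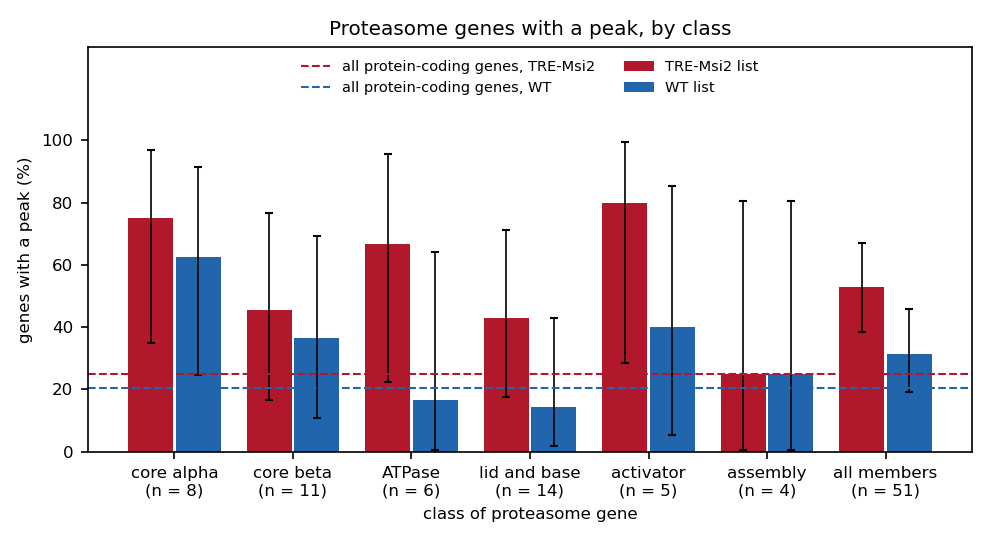
Share of genes with a peak in each class of proteasome genes, in the TRE-Msi2 list (red) and the WT list (blue), with exact 95% binomial intervals that cover counting error only; dashed lines give the share of all protein-coding genes, 24.9% and 20.3%. The core classes differ little between the lists (6 and 5 alpha, 5 and 4 beta genes), the ATPase bars differ most (4 and 1 of 6), and the intervals of the classes are wide and overlap.

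A peak in both lists was held by 9 of 19 core genes (47.4%), 2 of 5 activators (40%), 1 of 6 ATPases (16.7%) and 2 of 14 Psmd genes (14.3%), of which Psmd9 had antisense peaks alone. The share over all protein-coding genes was 19.1%. Of the 11 core genes with a TRE-Msi2 peak 2 had no WT peak (Psma5 and Psmb10). The same held for 3 of 4 ATPase, 4 of 6 Psmd and 2 of 4 activator genes with a TRE-Msi2 peak. Over all protein-coding genes with a TRE-Msi2 peak, 23.2% had no WT peak. The difference between classes was not tested. The median of the highest TRE-Msi2 scores was 33 for the core genes, 30.5 for the ATPases, 21 for the Psmd genes and 23 for the activators. In the WT list the order differed, with 21 for the core genes, 20 for the 1 ATPase, 22 for the Psmd genes and 22 for the activators.

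All 23 WT peaks over proteasome genes were overlapped by a TRE-Msi2 peak on the same strand (100%, interval 85.2% to 100%), where 91% of WT peaks over protein-coding genes were. In the other direction 22 of 47 TRE-Msi2 peaks had a WT counterpart (46.8%, 32.1% to 61.9%), where 58.7% did over protein-coding genes. TRE-Msi2 peaks with a counterpart had a median score of 31, and those without had 22. Among single-bin TRE-Msi2 peaks the share was lowest at the lowest scores and highest at the highest. Between 20 and 22 reads per bin, 2 of 18 member peaks had a WT counterpart, where 16.2% did over all protein-coding genes. From 31 to 44 reads, 10 of 12 did, where 82.8% did over all protein-coding genes. Of the 9 peaks between these scores 4 did (3 of 6 from 23 to 25 and 1 of 3 from 26 to 30), where 30.8% and 57.3% did over all protein-coding genes.

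The 11 genes with TRE-Msi2 peaks alone made up 40.7% of the 27 (22.4% to 61.2%), where 23.2% of all genes with a TRE-Msi2 peak held no WT peak. Most of the 11 had low scores: the highest score per gene ran from 20 to 31, with a median of 21, and 8 held a single peak. Among protein-coding genes whose highest TRE-Msi2 score was no more than 31, a comparison chosen after the counts were known, 34.4% held no WT peak. The member share of 40.7% is not limited in this way. Members scoring above 31 (Psma1, Psma2, Psma4, Psma6, Psmb4, Psmb5, Psmb6, Psmb11 and Psme2) all held a WT peak. Among members scoring no more than 31 the share without a WT peak is therefore higher than 40.7%. No proteasome gene held WT peaks alone, where 5.91% of genes with a WT peak held no TRE-Msi2 peak. When the TRE-Msi2 list was cut by score to as many peaks as the WT list has, 5 of 20 members held TRE-Msi2 peaks alone (25%, against 15.8% over all protein-coding genes), namely Psma5, Psmb10, Psmc1, Psmc2 and Psmd12. When the 50% of peaks with the lower scores were dropped from both lists they were Psmc1, Psmc2, Psme3 and Psme3ip1, 4 of 17 (23.5%, against 29.1%).

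At bins called in both lists, the ratio of the scores over proteasome genes had a median close to that over all protein-coding genes. Excluding peaks of unusual p-value, 14 single bins over members were called at the same position in both lists. Their TRE-Msi2 over WT score ratio had a median of 1.49 and ran from 1.11 to 1.95, where 2946 such bins over protein-coding genes had a median of 1.52 and a middle 50% of 1.31 to 1.74. Of the 14, 6 lay above the median of all bins. The highest ratio was that of the terminal bin of Psma6 (41 over 21, 1.95, interval 1.13 to 3.48), at percentile 88.6 of all bins, and the lowest those of Psmd9 (20 over 18, 1.11) and Psmd11 (31 over 26, 1.19, interval 0.685 to 2.09). The ratio holds the depth of both pools, so its size is not a measure of binding. Only bins above the threshold of both lists enter, which cuts off extreme ratios, and more of them at low scores. Over 2476 bins of protein-coding genes with a WT score in the range of the member bins, the median was 1.53. The 25 member TRE-Msi2 peaks without a WT counterpart cannot enter, so the medians do not speak to them.

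Against that ratio, the lowest single-bin WT score of 15 corresponds to a TRE-Msi2 score of 22.8. This is a rough guide, since the ratio comes only from bins called in both lists, which cuts off low ratios at low WT scores. Joined WT peaks can also score lower, down to 10.3 in the whole list. The highest TRE-Msi2 score lay below 22.8 in 7 of the 11 genes with TRE-Msi2 peaks alone: Psmb10, Psmc5, Psmd1, Psmd8, Psmd14, Psme1 and Psme4. Psma5 and Psmd12 were just above, at 23, and Psmc1 and Psmc2 were well above, at 31 and 30. The Psmc2 score is that of a joined peak of 400 nt, for which no single-bin value strictly applies. The part of the threshold in the absence of WT peaks was not tested.

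**Figure D3:**
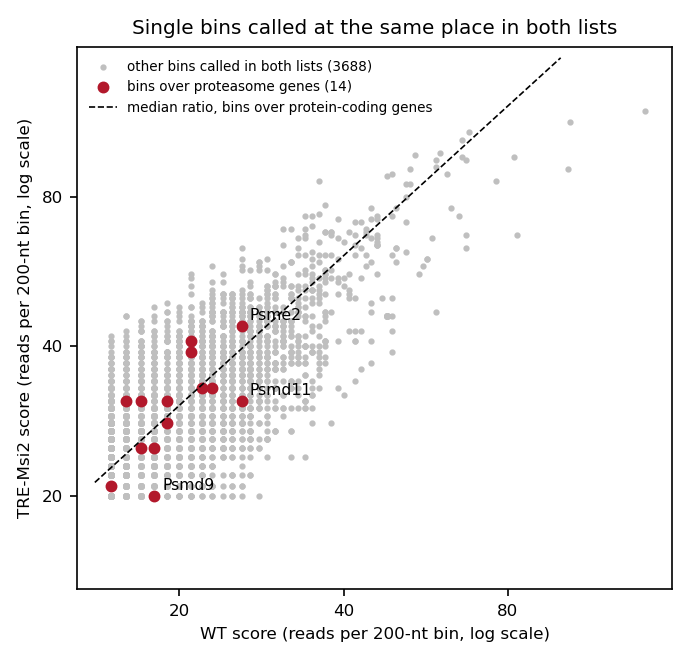
Scores of single 200-nt bins called at the same position in both lists, WT on the horizontal and TRE-Msi2 on the vertical log axis (reads per bin), for 3702 bins, of which 14 lie over proteasome genes (red; the others grey); the dashed line is the median ratio of bins over protein-coding genes, 1.52. The red points lie within the grey cloud on both sides of the line, with Psmd11 and Psmd9 below it.

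The place of the peaks along the gene was read from the gene's strand. The reference table gave a strand for 43 of the 51 genes, including every gene with a peak. Of the peaks, 44 of 47 in the TRE-Msi2 list (93.6%) and 20 of 23 in the WT list (87.0%) lay on the strand of the gene, where 84.2% and 82.4% of peak and gene pairs did over protein-coding genes of known strand in the TRE-Msi2 and the WT list. With only such peaks counted, 26 of the 43 members of known strand held a TRE-Msi2 peak and 14 of the 43 a WT peak. Of all protein-coding genes of known strand, 20.5% and 16.5% did. The member counts include peaks of unusual p-value. In Psmb11 they were the TRE-Msi2 peaks of 44 and 25 and the WT peak of 23. In Psmg4 it was the TRE-Msi2 peak of 31. In the whole TRE-Msi2 list 635 of 639 such peaks were given the plus strand, and in the WT list 132 of 132. Their strand is therefore not certain. Both genes lie on plus, and in the TRE-Msi2 list they count here only through these peaks. Of the peaks on the gene's strand, 19 of 44 TRE-Msi2 peaks (43.2%, 28.3% to 59.0%) and 10 of 20 WT peaks (50.0%, 27.2% to 72.8%) lay in the last 10% of the span, where 50.6% and 57.1% did over all protein-coding genes. In the last 2 kb lay 23 TRE-Msi2 peaks (52.3%) and 14 WT peaks (70%), where 45.5% and 52.3% did over all protein-coding genes.

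Measured in nucleotides, 17 TRE-Msi2 peaks (38.6%, 24.4% to 54.5%) and 10 WT peaks (50.0%) had their midpoint in the last 500 nt of the span, a distance chosen after the positions were seen. Over all protein-coding genes the shares were 19.3% of TRE-Msi2 and 22.3% of WT peaks, and over genes in the members' range of spans 20.8% and 23.7%. Among the 17 was the Psmb11 peak of 25, whose strand is not certain. The 17 peaks lay in 17 genes and the 10 in 10 genes, and 10 of the TRE-Msi2 and 6 of the WT genes held no other peak on their strand. Of the remaining genes, the terminal peak was the highest in 5 of 7 in the TRE-Msi2 list and 2 of 4 in the WT list. Of the peaks on the gene's strand, 8 in the TRE-Msi2 list and 4 in the WT list ran past the annotated end, by up to 130 nt in Psma5 and 76 nt in Psme2. Members have short spans, with a median of 11.6 kb against 17.1 kb over all protein-coding genes. The gene table has no exons, so peaks were not given to untranslated or coding regions, and the sequences under the peaks were not used here.

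**Figure D4:**
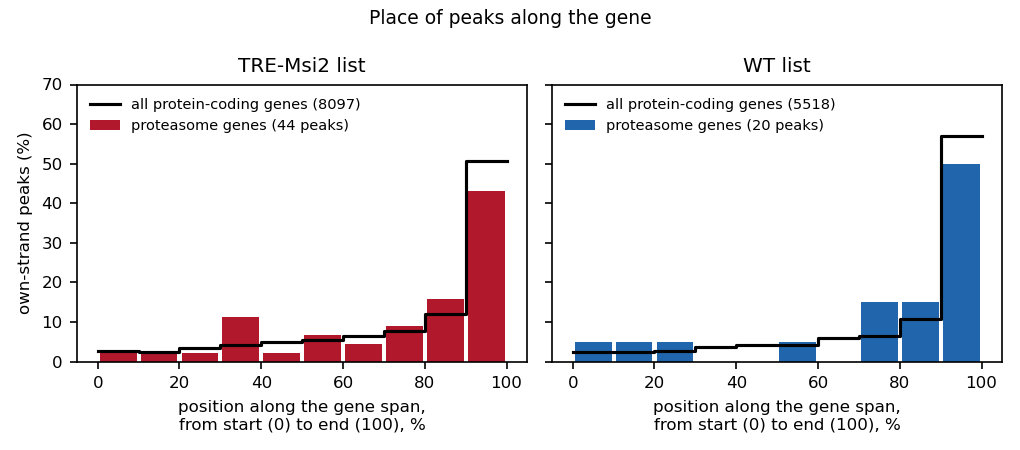
Place of peaks on the gene's own strand along the span, in steps of 10% from start to end (percent of peaks), for proteasome genes (bars; 44 TRE-Msi2 peaks at left, 20 WT peaks at right) and all protein-coding genes of known strand (black line). In both lists the last 10% holds the most peaks, 43.2% and 50.0% over proteasome genes and 50.6% and 57.1% over all genes.

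Single bins on the gene's strand with a midpoint over 500 nt from its end were also called in both lists. Besides the bins of Psmc6, Psmd11, Psme3ip1 and the first of Psmb11, given above, these were the bins of Psma2 at 14616734 to 14616933 of chromosome 13 (28 in TRE-Msi2, 19 in WT), of Psma3 at 70990414 to 70990613 of chromosome 12 (31 in TRE-Msi2, 19 in WT) and of Psma6 at 55414414 to 55414613 (25 in TRE-Msi2, 17 in WT). Psme3 had matching bins at 101321887 to 101322086 (25 in TRE-Msi2, 18 in WT) and 101322487 to 101322686 of chromosome 11 (21 in TRE-Msi2, 15 in WT). Over members both lists had the same bin boundaries, so overlapping single bins coincide. At any position, 58.7% of TRE-Msi2 and 91% of WT peaks over protein-coding genes had a counterpart. The Psmb11 bin carried an unusual p-value in both lists, so its strand is not certain.

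Other genes of the pathway held 44 TRE-Msi2 and 32 WT peaks. Of 32 genes chosen for their roles around the proteasome, 31 were matched, and 21 held a TRE-Msi2 peak (67.7%) and 20 a WT peak (64.5%), beside 24.9% and 20.3% of all protein-coding genes; 19 held both, 2 TRE-Msi2 alone and 1 WT alone. Among the ubiquitin genes, Rps27a scored 61 in TRE-Msi2 and 33 in WT, and Ubb scored 56.3 in TRE-Msi2 and 27.3 in WT, each from 1 peak per list. The ubiquitin receptor Adrm1, a base subunit without a Psm symbol, scored 59 in TRE-Msi2 and 36 in WT, above every Psm gene in both lists. Nfe2l2, a stress-responsive transcription factor that can raise proteasome genes, held 7 TRE-Msi2 and 4 WT peaks, with highest scores of 54 and 30. Nsfl1c, a cofactor of the unfoldase Vcp, scored 45 in TRE-Msi2 and 31 in WT, and Vcp held 7 TRE-Msi2 and 3 WT peaks. Pomp, the maturation factor of the core, scored 39 in TRE-Msi2 and 22.5 in WT, whereas Nfe2l1, the main activator of proteasome genes under inhibition, held none.

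Genes of this list with a peak in a single list were Sem1, a small lid subunit (26 in TRE-Msi2), and the ubiquitin-activating enzymes Uba1 (21 in TRE-Msi2) and Uba6 (16 in WT). The median of the highest scores was 28 in the TRE-Msi2 list and 22.8 in the WT list, against 31 and 21 for the proteasome genes. By these counts 2 of 21 pathway genes and 11 of 27 proteasome genes with a TRE-Msi2 peak had no WT peak. Over all protein-coding genes with a TRE-Msi2 peak the share was 23.2%. The difference between the 2 sets of genes was not tested.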

How the data were processed

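The files held 1 peak list per genotype, each pooling 2 libraries. Per the submitters' processing notes, cutadapt and TopHat were used, and both mm9 and mm10 are named; the file names describe duplicate removal and Piranha, with thresholds not given in the sources used here. Each cell joins a score and a p-value deposited by the authors, and the score was read as reads per bin. The coordinates fit mm10; chromosome X peaks reach 169976668. The names number 17 TRE-Msi2 and 15 WT peaks not present in the lists used here, and 0 of these fell beside a member.

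Peaks were assigned to genes at 1 base of overlap with the RefSeq GRCm38.p6 spans, strand ignored; strand came from a RefSeq promoter table. Lists were compared at 1 base on the same strand. Shares carry exact Clopper-Pearson 95% intervals, scores exact Poisson intervals, and score ratios an exact binomial interval conditional on their sum. With 1 pooled list per genotype no test was made. A p-value was called unusual when a single-bin peak did not carry the p most frequent for its score, or had a fractional score. Overlap code was tested on simulated data. Python 3.11.15, pandas 2.3.3 and scipy 1.17.1 were used. The rule named every member with a peak, and of the pathway genes the 6 highest scores and those in a single list; Vcp, Pomp and Nfe2l1 were named in addition, chosen after their values were seen, and some genes of the lists are not reported here. Members and lists were chosen with earlier results of these data known.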

Additional observations from a re-analysis of the deposited data

How the results depend on the processing

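No paired analysis was possible because each genotype has 1 pooled list, which also prevented leaving out a replicate. Among the recomputed counts and shares, 148 stayed within 1.5 times the reported count or within its interval and 20 did not. On the gene's own strand, WT genes fell to 1 in the lid and base class and 0 in the assembly class. With single-bin peaks alone, 1 member held WT peaks alone. A deposited p of at most 0.05 kept 45 TRE-Msi2 and 22 WT member peaks, still over 27 and 16 genes. In the upper 50% by score, 17 members held a TRE-Msi2 peak, TRE-Msi2 peaks were 24 and WT peaks 14, TRE-Msi2 genes were 1 for lid and base and 2 for activators, WT genes 1 each for these classes, WT pathway genes 13, and members with TRE-Msi2 peaks alone 4. With equally long lists, the TRE-Msi2 list cut by score, TRE-Msi2 peaks were 31, lid and base and activator genes 2 each, WT peaks with a counterpart 82.6%, and members with peaks in a single list 5 (TRE-Msi2) and 1 (WT, Psmd9). With single-bin peaks and the lowest TRE-Msi2 score raised to 21.5, an alternative chosen after seeing the data, these were 5 and 2. Highest scores per gene were recomputed with single-bin peaks alone, and with own-strand peaks that touch no other gene. Both settings only drop peaks, so a value changes only where the highest peak is dropped. Of 79 recomputed values, 1 left its Poisson interval: Psma4, at 22 in the TRE-Msi2 list with single-bin peaks alone, from another peak. Genes that lost every peak are not among the 79. They were Psma1, Psmc2 (TRE-Msi2) and Psma4 (WT) under the first setting. Under the second they were Psmd9, Psme1 (TRE-Msi2), Psmd9 and Psmg4 (WT). Single bins below 20 reads in the TRE-Msi2 list and 15 in the WT list were not called, so lower levels were not detectable.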

Other observations

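In the TRE-Msi2 list 639 of 9962 single-bin peaks (6.41%) carried a p-value other than the usual one for their score or a fractional score, and 635 of these 639 were given the plus strand. In the WT list the number was 132 of 7626 (1.73%), and 132 of 132 were on plus. Other single-bin peaks were on plus in 48.7% of the TRE-Msi2 list and 49.6% of the WT list. Over members there were 3 such TRE-Msi2 peaks, 2 in Psmb11 and 1 in Psmg4, and 1 WT peak, in Psmb11.

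The 6 annotated pseudogenes of proteasome subunits, among them Psma5-ps and Psmb5-ps, held 0 peaks in either list. No peak on the strand of a member of known strand began in the 1 kb after its annotated end.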
